A study of Rattus norvegicus with 2 samples.

Results

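The genes of the cytosolic ribosome encode the protein components of the 60S large and 40S small subunits that translate nuclear messages. They were taken by symbol from the platform's probe annotation (Rpl or Rps followed by a digit, Rplp0 and Rpsa), without the Rps6k kinases, symbols ending in l1 and pseudogene symbols holding -ps. Only probe sets that list a single gene symbol were used, which left 45 genes on 51 probe sets, 30 of the large and 15 of the small subunit, of 14217 genes with such a probe set. Of the 45, 42 were measured, 28 of the large and 14 of the small subunit, meaning that at least 1 array reached a signal floor of 19.8, the median of all non-control signals. Rpl28, Rpl30 and Rps13 lay below that floor on both arrays with their single-symbol probe sets. The rule also admits 3 paralogs or near copies, Rpl3l, Rps27l and Rps4y2.

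The stimulated sample was adductor muscle of the left hindlimb of male Lewis rats, resected 24 hours after 100 pricks with a steel needle of 0.14 mm diameter within a square of 10 mm by 10 mm. The control sample was adductor muscle of the right hindlimb, which was left unpricked. Each limb was represented by 1 Affymetrix array of total RNA, and the number of rats is not stated in the labels, nor whether both samples came from 1 animal. With 1 array per group nothing below could be tested, no difference has a replicate check, and "higher" and "lower" describe these 2 samples. Values are MAS5 signals, a linear brightness per probe set, and ratios are log2 of stimulated over control.

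Ribosomal protein messages are among the most abundant in most cells, and their proteins are made in matched amounts because a ribosome holds a single copy of nearly every one. Their messages typically begin with a C followed by a tract of pyrimidines, the terminal oligopyrimidine (TOP) motif, through which mTOR signalling and the binding protein LARP1 control their translation. In striated muscle RPL3L can take the place of its close relative RPL3 in the large subunit.

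The messages of both subunits were slightly but broadly higher in the stimulated limb. Of the 42 measured genes, 38 had a log2 ratio above 0 and 4 below it, against 52.3% above and 47.7% below 0 among all 9956 genes measured. Their median log2 ratio was 0.20, a 1.15-fold difference, against 0.019 over all genes. The quartiles lay at 0.12 and 0.37 for the 42 genes and at -0.22 and 0.25 for all genes, most of which were dimmer. With signals of 1000 or more on both arrays, they lay at 0.16 and 0.39 for 39 of the 42. For the 475 other genes that bright they lay at -0.16 and 0.17, a narrower range than that of all genes. Single genes differed little: 1 was at least 1.5-fold higher (Rpl3), against 6.59% of all genes, and 1 at least 1.5-fold lower (Rpl39), against 6.94%. None of the 42 was 2-fold higher or lower, where 1.43% of all genes were in each direction.

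The error scale for a single ratio came from 2174 genes for which 2 or more probe sets exceeded the floor in both samples, whose paired log2 ratios gave an SD of 0.31 for 1 probe set. This covers probe error and isoforms, not variation between limbs or animals. By the SD of 0.31, called the probe set SD below, 29 of the 42 genes lay within 1 SD of 0, 12 lay above it and 1 below it. The 12 make 28.6% of the genes, against 19.5% of all genes that lay as far above 0. That SD includes dim genes, while 39 of the 42 had signals of 1000 or more on both arrays. Among the 724 brightest of the 2174 genes the SD was 0.27. By that smaller SD, Rpl13a (0.31), Rpl27 (0.30) and Rps24 (0.28) also lay above it, and the dim Rps27l (-0.30) below it. Calls for these genes thus depend on the scale chosen. What set these genes apart from the median gene was therefore a small displacement repeated over many genes, not large single ratios.

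**Figure D1:**
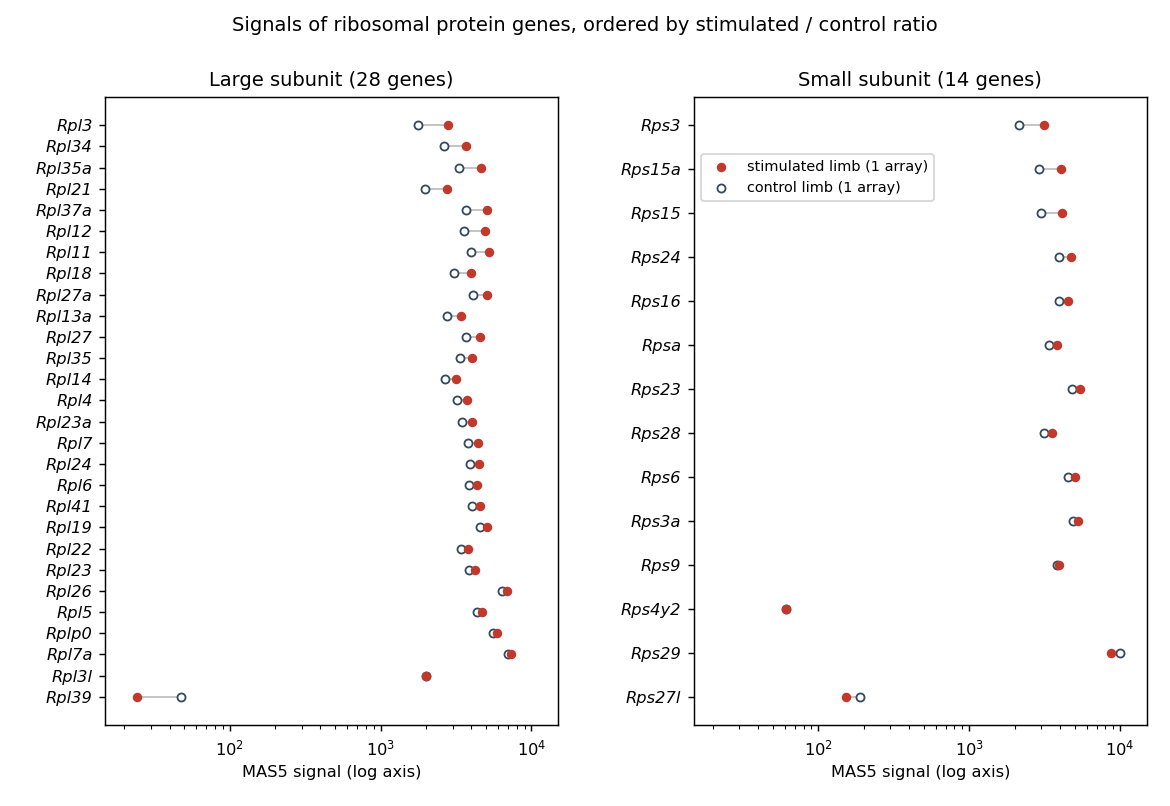
MAS5 signal (log axis) of each measured ribosomal protein gene in the stimulated limb (filled red) and the control limb (open), 1 array each, ordered by ratio within the large (left) and small subunit (right). The filled point lies to the right for 38 of 42 genes, and Rpl39, Rps29, Rps27l and Rpl3l are the exceptions.

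Pyrimidine runs near the annotated starts were more frequent in these genes than in others. The 10 starts shown here include those with the highest and the lowest ratio of the genes with an entry. A promoter entry in RefSeq (rat build GRCr8) was found for 36 of the 42 genes. Windows from 40 bases before to 20 bases from the annotated start are printed 5′ to 3′. Capitals mark the longest run of C or T letters that touched the 10 bases before or the first 10 bases from that start. The Rpl39 window ends in a longer run outside these bases, which is not marked. The first 5 had among the highest ratios of their subunit and long runs.
Rps3, chr1:163195757-163195816, minus strand: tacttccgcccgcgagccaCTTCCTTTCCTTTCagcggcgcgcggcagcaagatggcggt
Rps15a, chr1:181860265-181860324, minus strand: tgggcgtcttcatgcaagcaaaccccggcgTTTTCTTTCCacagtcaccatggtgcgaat
Rpl34, chr2:221962264-221962323, minus strand: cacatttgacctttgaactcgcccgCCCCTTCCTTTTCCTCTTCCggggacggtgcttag
Rpl35a, chr11:81235002-81235061, minus strand: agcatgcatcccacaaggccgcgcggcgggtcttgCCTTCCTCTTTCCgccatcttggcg
Rpl21, chr12:13386134-13386193, minus strand: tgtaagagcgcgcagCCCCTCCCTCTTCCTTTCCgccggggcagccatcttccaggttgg
The next 5 are Rpl3, with the highest ratio of all and a short run, Rpl7a, with the longest run and a ratio near 0, and Rpl3l, Rps27l and Rpl39, whose ratios lay below 0. In Rps3, Rps15a, Rpl21, Rpl7a and Rps27l the marked run ends before the annotated start.
Rpl3, chr7:113507971-113508030, minus strand: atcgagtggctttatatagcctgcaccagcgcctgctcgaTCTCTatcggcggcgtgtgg
Rpl7a, chr3:30637096-30637155, plus strand: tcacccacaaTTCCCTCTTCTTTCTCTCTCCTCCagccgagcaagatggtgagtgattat
Rpl3l, chr10:14258406-14258465, plus strand: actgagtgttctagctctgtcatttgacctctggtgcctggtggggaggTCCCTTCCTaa
Rps27l, chr8:76443618-76443677, plus strand: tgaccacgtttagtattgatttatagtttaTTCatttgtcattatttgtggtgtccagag
Rpl39, chrX:121195877-121195936, minus strand: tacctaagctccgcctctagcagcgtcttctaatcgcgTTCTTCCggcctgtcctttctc

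A run of at least 8 C or T letters on the coding strand that touched the 10 bases before or the first 10 bases from the annotated start was present in 23 of the 36 genes, or 63.9%. It was present in 13.5% of the 8329 measured genes with an entry and in 13.2% of all 33469 promoters in the table. The median longest run was 9.5 bases in the 36 genes and 4 bases in all measured genes. The large subunit had such a run in 15 of 24 genes and the small subunit in 8 of 12. Within the family the run did not sort the ratios: the 23 genes with it had a median log2 ratio of 0.23, from -0.015 to 0.56, and the other 13 had one of 0.19, from -0.97 to 0.65. Annotated starts can be displaced by several bases, and a missing run says only that none touched the 10 bases on either side of the start. A run counted here need not begin the message, so these counts are not counts of TOP motifs. In Rpl5, Rpl7a, Rpl13a, Rpl21, Rpl23, Rps3, Rps15a and Rpsa the run lay wholly before the annotated start. In Rpl3l and Rps28 it began after the start.

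**Figure D2:**
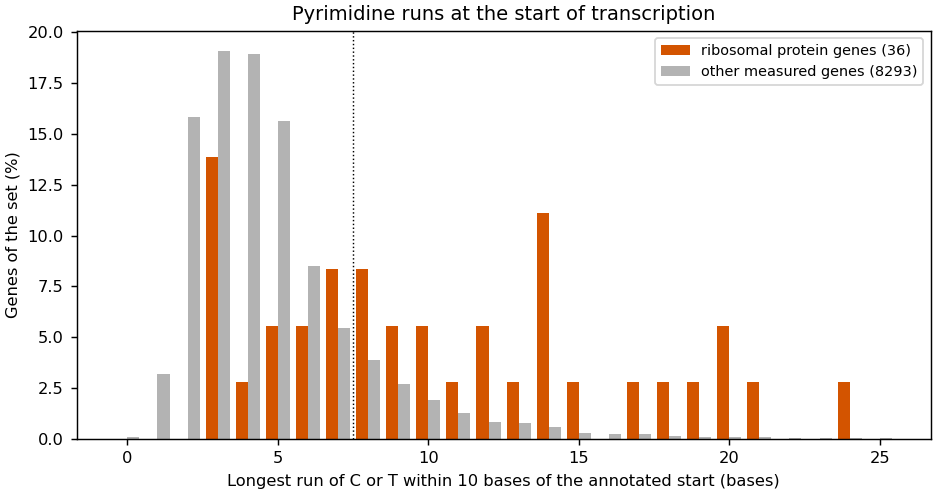
Share of genes (percent) by the longest run of C or T letters within 10 bases of the annotated start, for 36 ribosomal protein genes (orange) and the other measured genes (grey). To the right of the dotted line, at runs of 8 bases or more, lie 63.9% of the ribosomal protein genes; 16 other genes with runs over 25 bases are not drawn.

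In the large subunit, 26 of 28 genes lay above 0, with a median log2 ratio of 0.23 (1.17-fold). The signals of the 28 genes summed to 118824 in the stimulated and 99959 in the control limb, a ratio of 1.19. Rpl3, whose protein reaches into the peptidyl transferase centre, had signals of 2796 in the stimulated and 1777 in the control limb, a log2 ratio of 0.65 (1.57-fold). Its ratio was the highest of the 42, but its second, much dimmer probe set read 121 in the stimulated and 130 in the control limb, a log2 ratio of -0.10. That second probe set carries a suffix that marks possible cross-hybridisation, and taking the median of both gave a log2 ratio of 0.28.

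The muscle paralog Rpl3l had signals of 1989 in the stimulated and 2010 in the control limb, a log2 ratio of -0.015. The log2 ratios of Rpl3 and Rpl3l differed by 0.67, against the SD of 0.44 for a difference between probe sets. With the median over the probe sets of Rpl3 they differed by 0.29, within that SD, and the difference was not tested. As bulk tissue, these samples cannot tell fewer cells of a type from less RNA per cell. Muscle fibre markers were mostly lower, and their part in the Rpl3l ratio was not tested: 9 of the 10 measured had log2 ratios below 0, with a median of -0.42 and summed signals of 80090 in the stimulated and 104428 in the control limb. Acta1 (skeletal actin) and Ckm (muscle creatine kinase), which define the tissue, read 12095 and 12064 in the stimulated limb, against 16712 and 16392 in the control limb, and were thus bright in both samples, as the tissue label has it.

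The other large-subunit genes with the highest ratios were Rpl34, Rpl35a, Rpl21 and Rpl37a. Rpl34 had signals of 3677 in the stimulated and 2613 in the control limb (1.41-fold). Rpl35a, mutated in some families with Diamond-Blackfan anaemia, an inherited failure of red cell production, had 4633 in the stimulated and 3308 in the control limb (1.40-fold). Rpl21 had 2743 in the stimulated and 1977 in the control limb (1.39-fold), and Rpl37a 5072 in the stimulated and 3689 in the control limb (1.38-fold). Each of the 4 lay beyond the probe set SD, and each was represented by a single probe set.

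Genes of named sites on the large subunit lay above 0 with different ratios, none of whose differences could be tested. RPL5 and RPL11 join the 5S rRNA in 1 particle that also binds the p53 regulator MDM2. Rpl11 had signals of 5242 in the stimulated and 3974 in the control limb, a log2 ratio of 0.40, and Rpl5 had 4707 in the stimulated and 4364 in the control limb, one of 0.11. At the stalk, where elongation factors dock, Rpl12 read 4918 in the stimulated and 3589 in the control limb, a log2 ratio of 0.45. Rplp0, the stalk's base and a common reference gene for normalising PCR data, read 5924 in the stimulated and 5584 in the control limb, one of 0.09. Within each pair the ratios differed by less than 0.44, the SD of the difference between probe sets of the same gene.

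Around the exit of the peptide tunnel, Rpl35, Rpl23a, Rpl19 and Rpl26 had log2 ratios of 0.26, 0.22, 0.16 and 0.12, all above 0 and all within the probe set SD. Rpl39, which lines the tunnel, was the exception of the subunit, with signals of 24.2 in the stimulated and 47.5 in the control limb, a log2 ratio of -0.97 (1.96-fold lower). Both of its signals were close to the floor of 19.8, where relative error is greatest, and with log2(signal + 16) in place of the floor the ratio was -0.66. Its probe set was the only large-subunit one among the representatives with signals below 1000. Rpl7a and Rpl26 had the brightest probe sets of the subunit and low ratios, 0.06 for Rpl7a at 7266 in the stimulated and 6992 in the control limb and 0.12 for Rpl26 at 6915 in the stimulated and 6372 in the control limb. Rpl7 had 2 measured probe sets that disagreed, at 0.21 for the bright and -0.32 for the dim one, which read 31.9 in the stimulated and 39.7 in the control limb.

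The remaining large-subunit genes all lay above 0. Rpl18, Rpl27a, Rpl13a, Rpl27, Rpl14 and Rpl4 had log2 ratios of 0.38, 0.32, 0.31, 0.30, 0.24 and 0.23. RPL13A is also known for a role outside the ribosome, in silencing inflammatory messages in human monocytes. Rpl24, Rpl6, Rpl41, Rpl22 and Rpl23 had log2 ratios of 0.19, 0.19, 0.17, 0.15 and 0.14. RPL24 forms a bridge to the small subunit, and RPL41 is the smallest ribosomal protein. Of these 11 genes, only Rpl18 and Rpl27a lay beyond the probe set SD.

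In the small subunit, 12 of 14 genes lay above 0, with a median log2 ratio of 0.18 (1.13-fold) and summed signals of 56554 in the stimulated and 50545 in the control limb, a ratio of 1.12. The medians of the large and small subunits differed by 0.05, less than the spread among members, whose SD was 0.28 in the large and 0.24 in the small subunit. With signals of 1000 or more on both arrays, which leaves out Rpl39, the SD was 0.16 over 27 large-subunit and 0.21 over 12 small-subunit genes. No difference between the subunits can be tested with 1 array per group, and genes are not replicates.

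The highest ratios of the small subunit were those of Rps3, Rps15a and Rps15. RPS3 sits where the message enters the ribosome and also acts in DNA repair. Rps3 read 3136 in the stimulated and 2133 in the control limb, a log2 ratio of 0.56 (1.47-fold). Rps15a read 4043 in the stimulated and 2886 in the control limb, one of 0.49 (1.40-fold). Rps15, whose protein's tail reaches towards the decoding site, read 4107 in the stimulated and 2987 in the control limb, one of 0.46 (1.38-fold). These 3 were the only small-subunit genes beyond the probe set SD in the higher direction. They make 21.4% of the small subunit, close to the 19.5% of all genes, and the 9 such genes of the large subunit make 32.1%.

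Genes of other known sites of the small subunit had smaller ratios. Rps24, another Diamond-Blackfan anaemia gene, read 4767 in the stimulated and 3928 in the control limb, a log2 ratio of 0.28. Rps6, whose protein is phosphorylated by S6 kinase downstream of mTOR, read 5066 in the stimulated and 4488 in the control limb, one of 0.17. Rps23, which lies at the decoding centre, read 5446 in the stimulated and 4815 in the control limb, one of 0.18. These 3 lay above 0 within the probe set SD, as did Rps16 (0.20), Rps28 (0.18), Rps3a (0.11) and Rps9 (0.05).

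Rpsa, which also serves as a laminin receptor, had 3 measured probe sets, all higher in the stimulated limb. The brightest read 3848 in the stimulated and 3361 in the control limb, a log2 ratio of 0.20. The other 2, whose suffixes mark possible cross-hybridisation, read 3095 and 1040 in the stimulated limb, against 2150 and 788 in the control limb, with log2 ratios of 0.53 and 0.40. Rpsa was the only member whose several measured probe sets shared a direction.

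The 2 small-subunit genes below 0 were Rps29 and Rps27l. Rps29 had the brightest probe set of the subunit, at 8676 in the stimulated and 9948 in the control limb, a log2 ratio of -0.20. Of the 22 other genes with a mean signal of 8000 or more, 21 lay below 0, with a median of -0.42, and 7 of these 22 were muscle fibre markers. Without the 7, 14 of 15 lay below 0, with a median of -0.40. The log2 ratio of Rps29 was 0.05 with quantile normalization and 0.03 relative to a narrow lowess curve against mean signal. Rps27l, a relative of Rps27 that p53 induces in human cells, read 153 in the stimulated and 189 in the control limb, a log2 ratio of -0.30 just within the probe set SD. Rps4y2 read 61.4 in the stimulated and 60.8 in the control limb, one of 0.01.

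Brightness mattered for how the family compared with other genes. With signals of 1000 or more on both arrays, 37 of 39 ribosomal protein genes lay above 0, with a median log2 ratio of 0.21, against 53.3% above and 46.7% below 0 among all 514 such genes. Of the 39, 1 was at least 1.5-fold higher, against 2.72% of the 514, and 0 were at least 1.5-fold lower, against 1.56%. The 475 others had a median of -0.00088, with 237 above and 238 below 0. At mean signals from 2000 to 4000, 17 of 17 ribosomal protein genes lay above 0 (median 0.31), against 74 of 147 others (median 0.0017). From 4000 up, 20 of 21 lay above 0 (median 0.18), against 20 of 83 others (median -0.19). Of these 83 others, 8 were muscle fibre markers, and without them 20 of 75 lay above 0 (median -0.18). Further fibre messages outside the marker list may remain among the bright genes, so brightness and tissue source cannot be told apart in this comparison. Across the 39 bright members, the log2 ratio and log2 mean signal correlated with a Pearson r of -0.55, over genes that share both arrays.

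**Figure D3:**
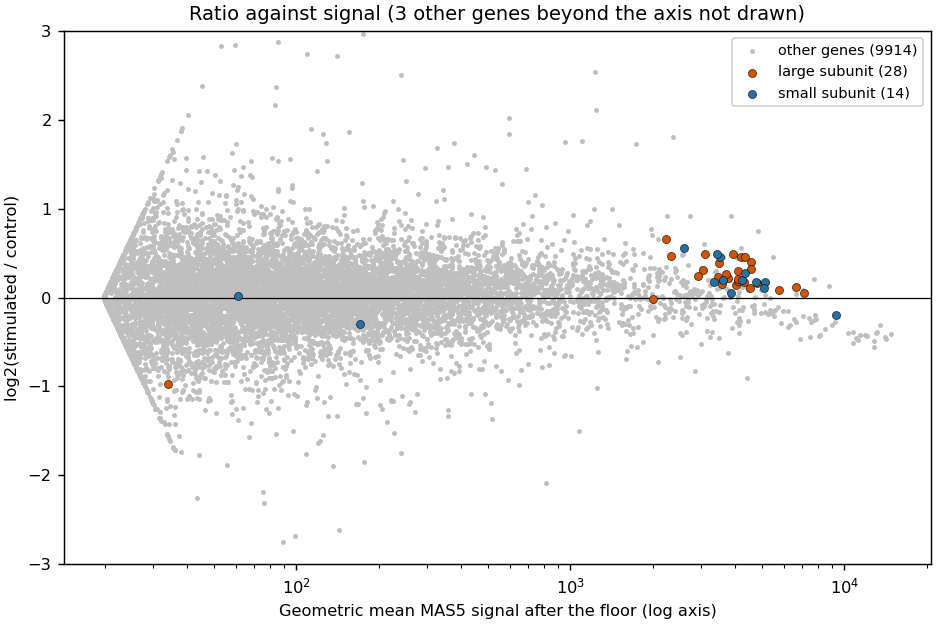
Log2 ratio of stimulated over control against mean MAS5 signal (log axis) for 9914 other genes (grey), 28 large-subunit (orange) and 14 small-subunit genes (blue). Most ribosomal protein genes form a cluster above 0 at signals from 2000 up, while 63 of 83 other genes with signals from 4000 up lie below 0.

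Because copies of ribosomal protein genes are common in the rat genome, many of their probe sets list several symbols and fell outside the family as defined. Of 36 such probe sets, 35 were measured, and 33 of them lay above 0, against 52.3% of all genes, with a median log2 ratio of 0.22. Only 1 was at least 1.5-fold higher, against 6.59% of all genes. It was dim, at 66.2 in the stimulated and 38.4 in the control limb. The 20 of the large subunit had a median of 0.17 and the 14 of the small subunit 0.22, an order opposite to that of the single-symbol genes, and 1 listed genes of both subunits. These probe sets may pick up near-identical copies, so they are given as a group and not by gene. Rack1, a scaffold protein of the small subunit whose symbol falls outside the rule, read 3410 in the stimulated and 2973 in the control limb, a log2 ratio of 0.20.

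Other genes of ribosome production and use were set beside the family. Of 73 measured genes of the mitochondrial ribosome, which translates messages of the mitochondrial genome, 58 lay above 0, with a median log2 ratio of 0.18. Among the 73, 3 were 1.5-fold or more higher and 0 were lower by as much, against 6.59% and 6.94% of all genes. The highest was Mrps31, at 107 in the stimulated and 64.0 in the control limb, a log2 ratio of 0.74, and the lowest Mrpl34, at 335 in the stimulated and 471 in the control limb, one of -0.49. A median like that of the cytosolic family was thus also found for the mitochondrial one, so the displacement was not shown to be particular to cytosolic ribosomes.

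Of 35 ribosome assembly genes, 23 lay above 0 and 12 below, with a median log2 ratio of 0.16. A difference of 1.5-fold or more was seen for 2 of them, both higher, a share no larger than the 6.59% of all genes. Tsr1, a factor of 40S maturation, read 164 in the stimulated and 105 in the control limb, a log2 ratio of 0.64, and Wdr12, a factor of 60S processing, 121 in the stimulated and 79.6 in the control limb, one of 0.60. The nucleolar proteins went both ways, with Fbl (fibrillarin, the methylase of rRNA) at 0.45, Ncl (nucleolin) at -0.08 and Nop56 at -0.44. The spread of these ratios was wider than that of the ribosomal proteins themselves, with quartiles at -0.06 and 0.42. The assembly genes were also much dimmer: Ncl, the brightest, read 482 in the stimulated and 511 in the control limb. The part of brightness in that spread was not tested.

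Of 11 measured factors whose messages carry the same TOP motif or are often counted with it, 10 lay above 0 and 0 reached 1.5-fold, and the median of 0.05 was closer to that of all genes. Eef1b2, an exchange factor of elongation, read 3011 in the stimulated and 2153 in the control limb, a log2 ratio of 0.48, and Naca, which binds new peptides at the tunnel exit, 1349 in the stimulated and 1116 in the control limb, one of 0.27. The main elongation factors showed little difference: Eef1a1 read 3178 in the stimulated and 3140 in the control limb, and Eef2 2796 in the stimulated and 2747 in the control limb.

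**Figure D4:**
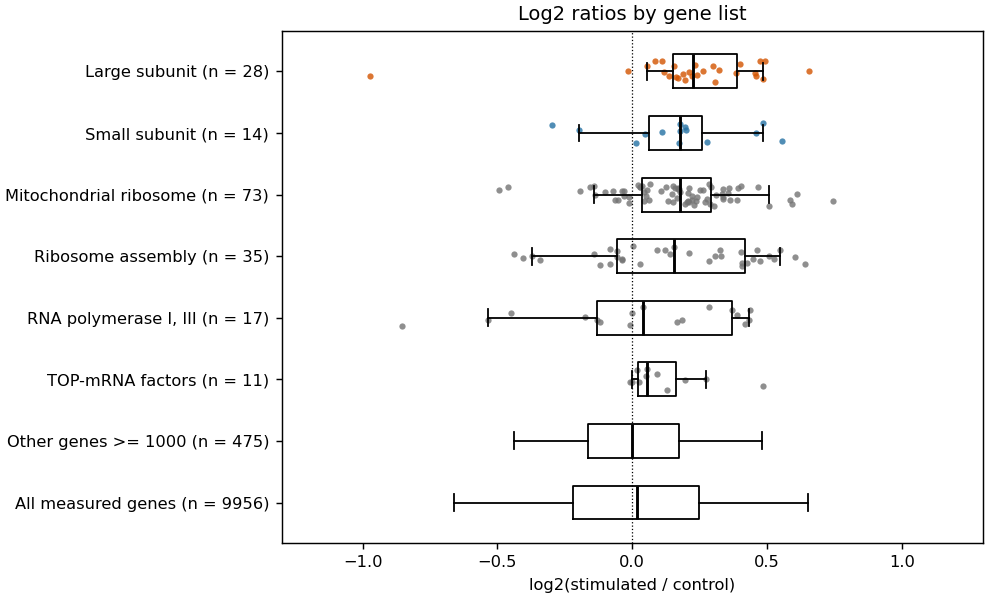
Log2 ratio of stimulated over control by gene list: points are genes (drawn for lists under 100 genes), boxes the quartiles with the median as a bar, whiskers the 5th and 95th percentiles. Both subunits and the mitochondrial ribosome have medians of 0.18 to 0.23, against 0.019 for all measured genes. Other genes with signals of 1000 or more have a median of -0.00088, but most mitochondrial ribosome genes are dimmer than that.

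Markers of other cells moved with the comparison. All 12 macrophage markers had log2 ratios above 0, with a median of 0.73 and summed signals of 5743 in the stimulated and 2726 in the control limb, and none was at 0 on either array. All 6 measured endothelial markers lay below 0 (median -0.64, summed 494 in the stimulated and 765 in the control limb), as did all 4 adipocyte markers (median -1.72, summed 1288 in the stimulated and 2945 in the control limb). Of 6 fibroblast markers, 4 lay below 0 (median -0.26, summed 16539 in the stimulated and 19818 in the control limb). Only 3 of 9 T and B cell and 2 of 6 neutrophil markers were measured. Of the 3, 2 lay below 0 and 1 above it. That 1 was Cd8a, at 74.3 in the stimulated and 13.7 in the control limb, the latter below the floor. Of the 2 neutrophil markers, 1 lay above and 1 below 0. Both measured red cell markers, of 4 listed, lay above 0 (median 0.23). The part of these cells, and of the lower fibre messages, in the ribosomal protein ratios was not tested.

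All ratios above are relative to the arrays' common scaling. The 18 hybridisation spike-in probe sets were all lower in the stimulated sample (median log2 ratio -0.38), and scaling to them placed the median gene at 0.39 and the median of the ribosomal protein genes to 0.58. Relative to the median gene, the family's median was 0.19 under that scaling and 0.18 under the authors' own. On the authors' scaling, the summed signal of the 42 genes was 4.14% of all non-control signal in the stimulated limb and 3.50% in the control limb.

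**Figure D5:**
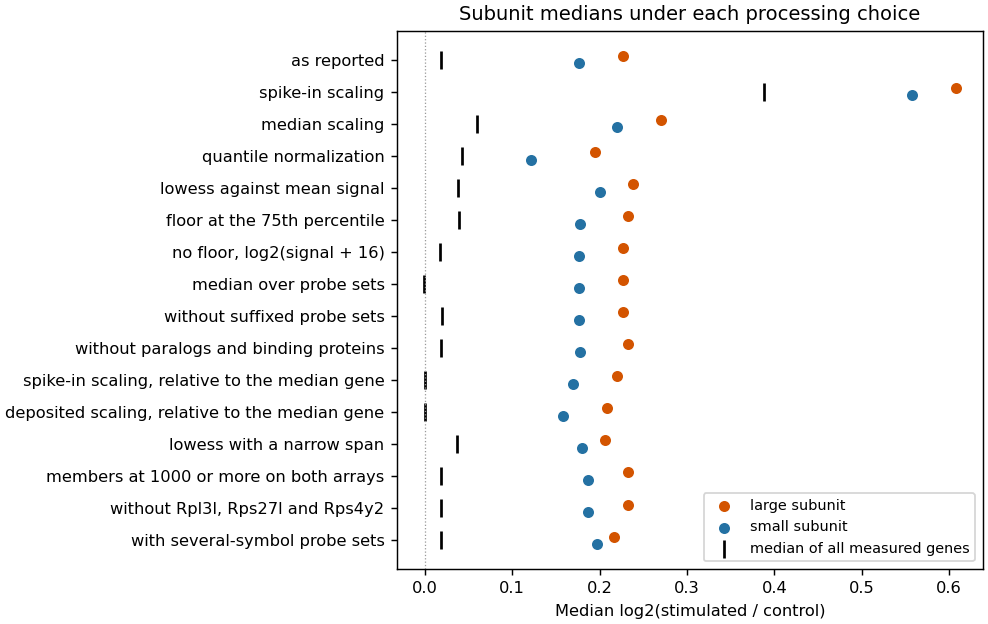
Median log2 ratio of the large (orange) and small subunit (blue) and of all measured genes (black bar) under each processing choice. Both subunit medians lie to the right of the bar for every choice drawn, and spike-in scaling shifts all 3 together.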

How the data were processed

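The samples compared were 1 array of stimulated and 1 of control muscle. The deposited values are MAS5 signal intensities per probe set, made by the authors, per the submitters' processing notes; the MAS5 version and the target of its scaling were not stated there. MAS5 combines perfect-match and mismatch probes and scales each array by 1 factor. Labelling was a single-cycle biotin protocol, per the labels' protocols. Of 31099 probe sets, 57 manufacturer's controls were left out of the ratios.

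Signals below the floor of 19.8 were raised to it before log2 ratios were taken, and the brightest measured probe set (by mean log2 signal) stood for its gene. Counts at 1.5-fold and 2-fold are descriptions, since 1 array per group allows no test. Of the 45 genes, 43 were matched by gene identifier to RefSeq (GRCr8), and 0 symbols changed. Depth has no equivalent here: the number of arrays limits the precision.

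The genes, lists and settings were chosen with earlier results of these data known. Genes named by rule were the 5 highest, 5 lowest and 3 brightest of each subunit, a short preset list (Rplp0, Rpsa, Rpl3, Rpl3l, Rps6, Rps27l), every gene past 1.5-fold and those whose probe sets disagreed in sign by over 0.5, in all 25; the other genes were named after their values were seen. The procedure was tested on simulated data. Alternatives numbered 9 planned and 6 added after seeing the data. Python 3.11.15, pandas 2.3.3 and statsmodels 0.14.6 were used.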

Additional observations from a re-analysis of the deposited data

How the results depend on the processing

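The median log2 ratio of the family stayed above 0 and between 0.16 and 0.24 under every alternative except spike-in scaling, which gave 0.58 for the family, 0.61 for the large subunit and 0.56 for the small subunit, with 1 gene below 0 and 20 at least 1.5-fold higher, against 15.3% and 27.9% of all genes under that scaling. Relative to the median gene, the same scaling gave 0.19. The difference between the subunit medians lay between 0.02 and 0.07 under all 15 alternatives. A median was taken as moved when it shifted by 0.1 or more, since no replicate spread exists.

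Counts at 1.5-fold rest on 1 or 2 genes. The number higher was 2 with median scaling, 2 with probe sets of several symbols added and 0 with the median over probe sets, where Rpl3 averages a bright and a dim probe set. The number lower was 0 after raising the floor to the 75th percentile and 0 among genes with signals of 1000 or more, both of which leave out Rpl39. The number below 0 was 2 without Rpl3l and Rps27l, 2 without Rps4y2 as well, and 2 among genes with signals of 1000 or more. Adding probe sets of several symbols gave 71 above 0, from more features. Of 363 values of single named genes under the alternatives, 27 moved by more than the probe set SD, 25 of them with spike-in scaling. Of the same values, 9 changed sign, over 6 genes that all lay within the probe set SD: Rpl3l with spike-in (0.37) and median scaling (0.03), Rps27l (0.08) with spike-in scaling, and Rps29 with spike-in scaling (0.18), quantile normalization (0.05) and the narrow lowess curve (0.03). The others were Rps9 with quantile normalization (-0.03), Rpl7 with the median over probe sets (-0.05) and Rps4y2 relative to the median gene (-0.0042). The sign of Rpl3 and Rpl39, the genes past 1.5-fold, stayed.

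Signal over background limits Rpl39, Rps4y2 and Rps27l most. No paired analysis was possible because each group has 1 array.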

Other observations

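Genes that supply or govern ribosome production showed no common direction. Of 17 genes of RNA polymerase I and III, which transcribe ribosomal and transfer RNA, 9 lay above 0 and 8 below, with a median log2 ratio of 0.04. Polr1d, a subunit shared by both polymerases, read 958 in the stimulated and 742 in the control limb, a log2 ratio of 0.37. Ubtf, the factor that opens rRNA gene chromatin, read 57.0 in the stimulated and 77.9 in the control limb, one of -0.45. Polr1e was the only one of the 17 past 1.5-fold, at 25.1 in the stimulated and 45.4 in the control limb, close to the floor.

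Of 14 measured genes of growth control, 7 lay above and 7 below 0, with a median of -0.05, and 0 reached 1.5-fold in either direction. The list holds repressors as well as drivers, so an even split does not show how growth control as a whole moved. Myc, a transcription factor that drives ribosome production, read 27.9 in the stimulated and 35.3 in the control limb, a log2 ratio of -0.34. Mtor read 71.3 in the stimulated and 86.3 in the control limb, one of -0.28, and Larp1, which holds TOP messages back, 242 in the stimulated and 268 in the control limb, one of -0.15. Eif4ebp1, a translational repressor acting on the cap-binding protein, read 630 in the stimulated and 507 in the control limb, one of 0.31.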
